A study of Mus musculus with 24 samples.

Results

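The ectonucleotide pyrophosphatase/phosphodiesterase (ENPP) family was followed in mouse kidney by its 6 genes Enpp1, Enpp2, Enpp3, Enpp4, Enpp5 and Enpp6, taken by name from the 35413 genes to which the deposited transcripts could be assigned. They are represented by 34 of 115636 transcripts. The rule that chose them uses gene names and no measured value, though it was set with earlier results of these data known.

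The libraries come from bulk RNA of whole kidney in a model of renal injury in which mice eat adenine for 14 days. In the knockout experiment, 6 libraries are labelled ENPP1 knockout (ENPP1 fl/fl crossed with CAG-ERCre, in which the ubiquitous CAG promoter drives a tamoxifen-activated Cre recombinase, Cre-positive, tamoxifen given, adenine diet), 6 are wild type (Cre-negative, adenine diet) and 4 are from a CHOW diet control group whose genotype is not stated. In the antibody experiment, 4 mice on adenine received an hENPP1 monoclonal antibody and 4 on adenine received control IgG, each at 50 mg/kg by repeated intraperitoneal injection. The antibody is named for the human protein, and the labels do not state whether these mice carry a human ENPP1 gene. Strain, age, the floxed exons and whether the chow and wild-type mice received tamoxifen are not stated. The labels do not say that the libraries of a group came from separate litters or cages, so the p-values measure the spread between these samples.

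ENPP proteins cut phosphodiester and pyrophosphate bonds outside the cell. ENPP1 and ENPP3 split ATP into AMP and pyrophosphate, ENPP1 also degrades the signalling dinucleotide cGAMP, and ENPP4 cleaves diadenosine triphosphate. ENPP2 (autotaxin) is secreted and makes lysophosphatidic acid from lysophosphatidylcholine, ENPP6 releases phosphocholine from glycerophosphocholine and lysophosphatidylcholine, and the substrates of ENPP5 are less well defined. In the kidney, pyrophosphate from ENPP1 restrains calcification, and ENPP6 is known from the proximal tubule.

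Each of the 16 libraries labelled knockout, wild type or chow held 21049722 to 28209908 reads assigned to genes, and mitochondrially encoded genes took 16.9 to 26.7% of them. The 8 antibody and IgG libraries held 43880608 to 50557594 such reads, with a mitochondrial share of 20.6 to 30.1%. Levels of a gene across libraries are given as counts relative to library size (CPM), scaled by the trimmed mean of M values (TMM) separately in each experiment. A gene or transcript was called when its Benjamini-Hochberg adjusted p over all features tested was under 0.05. All 10 proximal tubule markers of the list used here were detected in every group. Their summed level was 3589 to 6426 length-normalised units (TPM, the authors' deposited measure per transcript length, summed per gene) in labelled-knockout kidneys, 1485 to 2632 TPM in wild-type kidneys on adenine, 4767 to 4877 TPM in chow kidneys, 1486 to 2068 TPM in antibody kidneys and 534 to 817 TPM in IgG kidneys.

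Enpp1 and Enpp3 lie next to each other on chromosome 10, Enpp4 and Enpp5 next to each other on chromosome 17, Enpp2 on chromosome 15 and Enpp6 on chromosome 8. The transcripts that carried the differences described here differ in a few stretches of sequence, which were read from GENCODE M21 (GRCm38). The deposited files were made with GRCm39, and every one of the 34 family transcripts has the same length in both. Enpp2-204 contains a cassette exon of 156 bases, exon 12, at chr15:54877776-54877931 on the minus strand, which adds 52 whole codons to the autotaxin reading frame. It is shown because its share differed between antibody and IgG kidneys. The cassette is in capitals, with 15 bases of the neighbouring exon on each side in lower case, and Enpp2-201 joins those neighbours directly.
Enpp2-204: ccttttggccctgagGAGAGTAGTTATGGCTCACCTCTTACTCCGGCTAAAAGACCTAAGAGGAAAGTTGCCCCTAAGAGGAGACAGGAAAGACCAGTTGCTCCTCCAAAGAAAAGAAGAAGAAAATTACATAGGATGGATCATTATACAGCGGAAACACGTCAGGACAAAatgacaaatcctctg
Enpp2-201: ccttttggccctgagatgacaaatcctctg

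Enpp1-204 is annotated as a retained-intron transcript without a coding region. It shares 408 bases with exons 6 to 9 of the coding transcript Enpp1-202 and runs on into introns, so 3230 of its 3638 bases lie outside the exons of Enpp1-202. It is shown because its share of Enpp1 reads separated the diets. The ends of exons 8 (chr10:24669680-24669799) and 9 (chr10:24669009-24669118), minus strand, are in capitals, followed by the first 30 bases of the intron in lower case.
Enpp1-204, exon 8: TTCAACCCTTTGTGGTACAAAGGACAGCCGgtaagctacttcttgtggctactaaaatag
Enpp1-204, exon 9: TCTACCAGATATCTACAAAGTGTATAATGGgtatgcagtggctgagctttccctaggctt

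RefSeq promoter entries (GRCm38.p6, the 250 bases before the start) matched 4 of the 6 genes, Enpp1, Enpp3, Enpp4 and Enpp6. They were searched on both strands for the TATA box (letters TATAAA, present in 12.4% of 32851 promoters of the same length), for the CCAAT box (present in 33.9%) and for part of the site of the tubule factor HNF1 (letters GTTAAT, present in 6.43%). The motifs do not overlap each other in these promoters. The promoters of Enpp6, which had the largest change with TMM scaling between the 2 adenine groups of the knockout experiment, and of Enpp1, which had the smallest, are shown with matches in capitals.
Enpp6, chr8:46986637-46986886, plus strand: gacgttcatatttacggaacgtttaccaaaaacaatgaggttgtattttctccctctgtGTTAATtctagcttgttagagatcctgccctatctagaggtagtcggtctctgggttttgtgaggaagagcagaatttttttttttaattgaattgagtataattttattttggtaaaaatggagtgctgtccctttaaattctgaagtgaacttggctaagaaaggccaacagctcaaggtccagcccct
Enpp1, chr10:24712160-24712409, minus strand: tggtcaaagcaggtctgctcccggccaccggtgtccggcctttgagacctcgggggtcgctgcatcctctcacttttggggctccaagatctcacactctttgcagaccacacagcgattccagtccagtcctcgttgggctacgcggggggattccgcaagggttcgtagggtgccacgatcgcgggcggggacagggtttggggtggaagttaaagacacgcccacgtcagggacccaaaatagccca
The Enpp6 promoter holds GTTAAT 191 bases before the start, and the Enpp1 promoter holds none of the 3 motifs. Enpp3 has CCAAT at -41 and TATAAA on the other strand at -209, and Enpp4 has CCAAT at -230 and -189. A match describes letters and not binding.

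Levels per transcript length, in TPM, ranked the family alike in most groups. In labelled-knockout kidneys Enpp2 averaged 34.1 ± 7.05, Enpp5 26.6 ± 2.41, Enpp6 14.2 ± 1.24, Enpp3 13.01 ± 1.44, Enpp1 4.13 ± 0.192 and Enpp4 4.06 ± 0.366 TPM (SD, n = 6). In wild-type kidneys on adenine Enpp5, at 20.6 ± 4.15 TPM, stood beside Enpp2, at 19.2 ± 2.42 TPM, and their ranges overlapped (SD, n = 6). Enpp3 came next in wild-type kidneys at 13.6 ± 1.90 TPM, above Enpp6 at 9.26 ± 2.33 TPM in all 6 libraries although their ranges overlapped. Enpp1 and Enpp4 came last at 4.42 ± 0.549 and 4.12 ± 0.780 TPM and overlapped. In chow kidneys the order was Enpp2 at 39.1 ± 5.01, Enpp5 at 31.7 ± 4.89, Enpp6 at 16.7 ± 0.196, Enpp3 at 11.7 ± 0.678, Enpp1 at 5.43 ± 0.425 and Enpp4 at 3.41 ± 0.423 TPM (SD, n = 4). Only Enpp2 and Enpp5 had overlapping ranges among neighbours in that order in chow kidneys.

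The antibody experiment had the same leaders and another last place. Antibody kidneys held 134 ± 22.6 TPM of Enpp2, 62.4 ± 6.61 of Enpp5, 43.1 ± 5.65 of Enpp6, 26.1 ± 2.93 of Enpp3, 5.86 ± 0.476 of Enpp4 and 1.39 ± 0.951 of Enpp1 (SD, n = 4). IgG kidneys held 48.8 ± 8.01 TPM of Enpp2, 37.5 ± 5.80 of Enpp5, 26.5 ± 3.44 of Enpp6, 15.5 ± 2.57 of Enpp3, 5.31 ± 0.906 of Enpp4 and 1.44 ± 0.260 of Enpp1 (SD, n = 4). Enpp1 was the lowest member in each of these 8 libraries. Enpp2 made up 48.9 ± 2.21% of the family's TPM in antibody kidneys and 36.0 ± 1.91% in IgG kidneys (SD, n = 4 each). Enpp7, the intestinal alkaline sphingomyelinase of the same family, had 0 reads in every library.

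**Figure D1:**
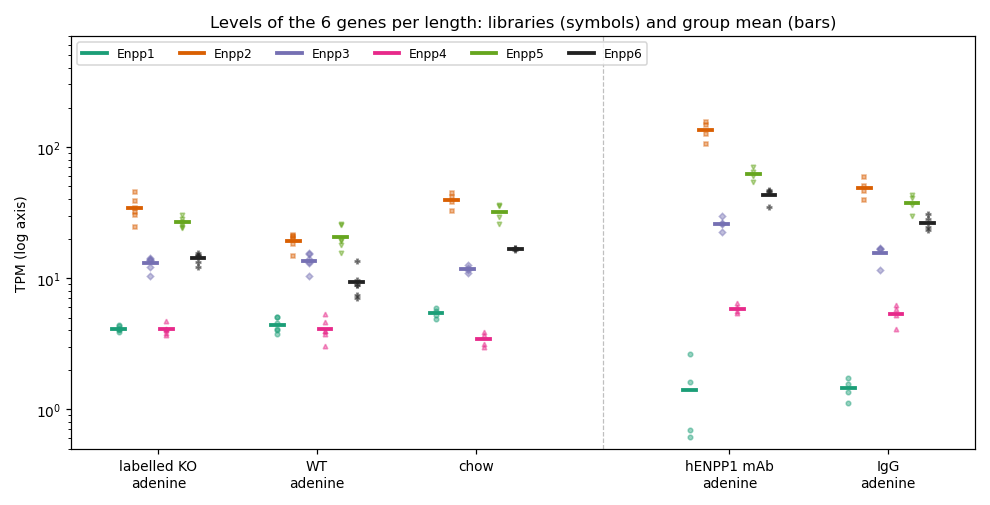
TPM (log axis) of the 6 genes in each library (symbols) with the group mean (bars), by group; the dashed line separates the knockout and the antibody experiment. Enpp2 and Enpp5 are the highest members, and Enpp1 is last in antibody and IgG kidneys, at 1.39 and 1.44 TPM.

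Enpp1 is the gene named in the knockout, and its reads were not lower in the libraries labelled knockout. They held 21.6, 22.4 and 24.7 CPM (lowest, median and highest of 6), against 20.9, 21.3 and 24.9 CPM in wild-type kidneys on adenine. The 2 ranges overlapped almost entirely. The log2 fold change was 0.05 (SE 0.0514, 95% interval -0.06 to 0.16, edgeR quasi-likelihood adjusted p = 0.466). The files hold reads per transcript and not per exon, so the loss of single exons cannot be read from them. For this reason the group is called labelled knockout throughout.

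Enpp1 was lower in both adenine groups than in chow kidneys. Chow kidneys held 55.8, 55.4, 55.6 and 49.9 CPM, and every adenine library lay below all of them. The log2 fold change was -1.25 (SE 0.0550, adjusted p = 3.52e-13, edgeR) in labelled-knockout kidneys and -1.30 (SE 0.0551, adjusted p = 7.01e-14, edgeR) in wild-type kidneys, both over chow. These 2 comparisons share the chow libraries. On log2 TPM both falls were smaller and passed, at -0.39 (adjusted p = 0.00123, limma) and -0.30 (adjusted p = 0.00796, limma). In TPM, wild-type library 1, at 5.05, lay above chow library 4, at 4.91.

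Enpp1 was the only member whose antibody libraries spread on both sides of the IgG libraries. Antibody kidneys held 9.51, 2.62, 3.26 and 17.4 CPM, against 7.94, 8.86, 8.68 and 7.22 CPM in IgG kidneys. In CPM, 2 of the antibody libraries lay below and 2 above every IgG library. In TPM, antibody library 1, at 1.62, lay below IgG library 2, at 1.72. The log2 fold change was -0.0027 with an SE of 0.471 (adjusted p = 0.997, edgeR), and its 95% interval, -1.04 to 1.03, is the widest of the family. The proximal tubule marker sum in the same antibody libraries was 1486, 1989, 1700 and 2068 TPM, an order that Enpp1 did not follow. The other 5 members did not divide the 4 antibody libraries in this way.

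Labelled-knockout kidneys held 61.7, 88.2 and 119 CPM of Enpp2, the autotaxin gene (lowest, median and highest of 6), against 41.7, 47.4 and 52.5 CPM in wild-type kidneys on adenine. The highest wild-type library lay below the lowest labelled-knockout library, with a log2 fold change of 0.92 (SE 0.113, adjusted p = 3.49e-06, edgeR). Chow kidneys held 197, 185, 154 and 175 CPM, above all 12 adenine libraries of that experiment. Over chow, the log2 fold change was -0.99 (SE 0.122, adjusted p = 4.83e-07, edgeR) in labelled-knockout kidneys and -1.91 (SE 0.124, adjusted p = 3.00e-11, edgeR) in wild-type kidneys. On log2 TPM the labelled-knockout change over chow was -0.21 and did not pass (adjusted p = 0.166, limma). The wild-type change was -1.02 (adjusted p = 1.97e-06, limma). In TPM, labelled-knockout library 2, at 45.1, lay above every chow library (32.7 to 44.4).

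Antibody kidneys held 356, 471, 399 and 545 CPM of Enpp2, against 144, 121, 165 and 141 CPM in IgG kidneys. The lowest antibody library was above the highest IgG library. The log2 fold change of 1.63 (SE 0.137, adjusted p = 4.36e-05, edgeR), or 3.10-fold, was the largest of the family in this comparison.

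Enpp6, the choline phosphodiesterase, was also higher in labelled-knockout kidneys. Labelled-knockout kidneys held 26.9, 41.2 and 56.2 CPM (lowest, median and highest), against 17.7, 19.5 and 24.1 CPM in wild-type kidneys on adenine. The groups did not overlap, and the log2 fold change was 1.04 (SE 0.125, adjusted p = 2.74e-06, edgeR). Chow kidneys held 90.8, 96.0, 83.3 and 92.1 CPM. Over chow, the log2 fold change was -1.11 (SE 0.131, adjusted p = 2.59e-07, edgeR) in labelled-knockout kidneys and -2.15 (SE 0.135, adjusted p = 1.87e-11, edgeR) in wild-type kidneys. With TMM scaling this was the largest fall in the family, while on log2 TPM that of Enpp2 was larger (-1.02, against -0.88 for Enpp6). On log2 TPM the Enpp6 change in labelled-knockout kidneys over chow was -0.24 and did not pass (adjusted p = 0.108, limma).

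Antibody kidneys held 187, 242, 233 and 265 CPM of Enpp6, against 158, 100, 138 and 104 CPM in IgG kidneys. The highest IgG library stayed below the lowest antibody library, with a log2 fold change of 0.89 (SE 0.154, adjusted p = 0.000737, edgeR).

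Enpp5, which pairs with Enpp4 on chromosome 17, was higher in labelled-knockout kidneys by a smaller step. They held 57.0, 63.2 and 73.6 CPM (lowest, median and highest), against 40.9, 48.1 and 55.7 CPM in wild-type kidneys on adenine. The lowest labelled-knockout library was just above the highest wild-type library, and the log2 fold change was 0.41 (SE 0.0825, adjusted p = 0.000586, edgeR). Chow kidneys held 133, 132, 104 and 113 CPM, with log2 fold changes over chow of -0.91 (SE 0.0897, adjusted p = 2.23e-08, edgeR) in labelled-knockout kidneys and -1.31 (SE 0.0901, adjusted p = 7.16e-11, edgeR) in wild-type kidneys. On log2 TPM the labelled-knockout change over chow was -0.25 and did not pass (adjusted p = 0.0914, limma). The wild-type change was -0.63 (adjusted p = 0.000224, limma). Antibody kidneys held 158, 191, 166 and 192 CPM, against 94.0, 90.3, 105 and 90.6 CPM in IgG kidneys. These groups were apart, with a log2 fold change of 0.90 (SE 0.0853, adjusted p = 4.98e-05, edgeR).

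Enpp3, the other ATP-splitting member, and Enpp4 did not pass the test between the 2 adenine groups of the knockout experiment. Enpp3 stood at 23.0, 29.0 and 33.3 CPM in labelled-knockout kidneys (lowest, median and highest), against 20.6, 26.0 and 29.1 CPM in wild-type kidneys on adenine. Its log2 fold change was 0.17 (95% interval -0.04 to 0.37, adjusted p = 0.170, edgeR), with overlapping ranges. Enpp4 stood at 15.4, 15.7 and 19.7 CPM in labelled-knockout kidneys, against 12.9, 15.3 and 17.3 CPM in wild-type kidneys on adenine, a log2 fold change of 0.09 (95% interval -0.07 to 0.25, adjusted p = 0.354, edgeR). Enpp4 ranges overlapped too, and the highest labelled-knockout library stood well apart from the other 5.

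With TMM scaling both were lower than in chow kidneys, a direction that turned round with library totals for Enpp4 and with TPM for Enpp3 and Enpp4. Chow kidneys held 41.5, 44.8, 51.7 and 45.6 CPM of Enpp3, and its log2 fold change was -0.68 (SE 0.105, adjusted p = 8.26e-06, edgeR) in labelled-knockout kidneys and -0.85 (SE 0.106, adjusted p = 4.26e-07, edgeR) in wild-type kidneys. Chow kidneys held 25.4, 24.5, 21.2 and 21.5 CPM of Enpp4, and its log2 fold change was -0.51 (SE 0.0835, adjusted p = 1.83e-05, edgeR) in labelled-knockout kidneys and -0.60 (SE 0.0837, adjusted p = 2.15e-06, edgeR) in wild-type kidneys. With library totals in place of TMM, Enpp4 was higher than in chow by 0.06 on the log2 scale in each adenine group. On log2(TPM + 0.1), Enpp3 was higher by 0.14 in labelled-knockout and by 0.20 in wild-type kidneys, and Enpp4 by 0.25 in both.

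Antibody kidneys held 66.2, 74.8, 68.3 and 79.3 CPM of Enpp3, against 36.1, 40.9, 44.3 and 40.6 CPM in IgG kidneys (log2 fold change 0.83, SE 0.0806, adjusted p = 5.15e-05, edgeR). They held 28.5, 31.3, 29.4 and 28.7 CPM of Enpp4, against 22.3, 23.9, 24.6 and 22.1 CPM in IgG kidneys (log2 fold change 0.34, SE 0.0644, adjusted p = 0.00115, edgeR). Both pairs of groups were apart, and Enpp4 had the smallest called change. It did not pass with library totals (0.09, adjusted p = 0.424, edgeR) or with TPM (0.15, adjusted p = 0.466, limma). ENPP3 is also a surface marker of basophils, and the 7 basophil and mast cell markers summed to 0.440 to 0.657 TPM in antibody kidneys and 0.371 to 1.19 TPM in IgG kidneys, with 4 of them at 0 in every antibody library. In the knockout experiment they summed to 2.66 to 4.41 TPM in labelled-knockout, 2.22 to 4.46 TPM in wild-type and 6.70 to 9.34 TPM in chow kidneys. The part of these cells in the Enpp3 changes was not tested.

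**Figure D2:**
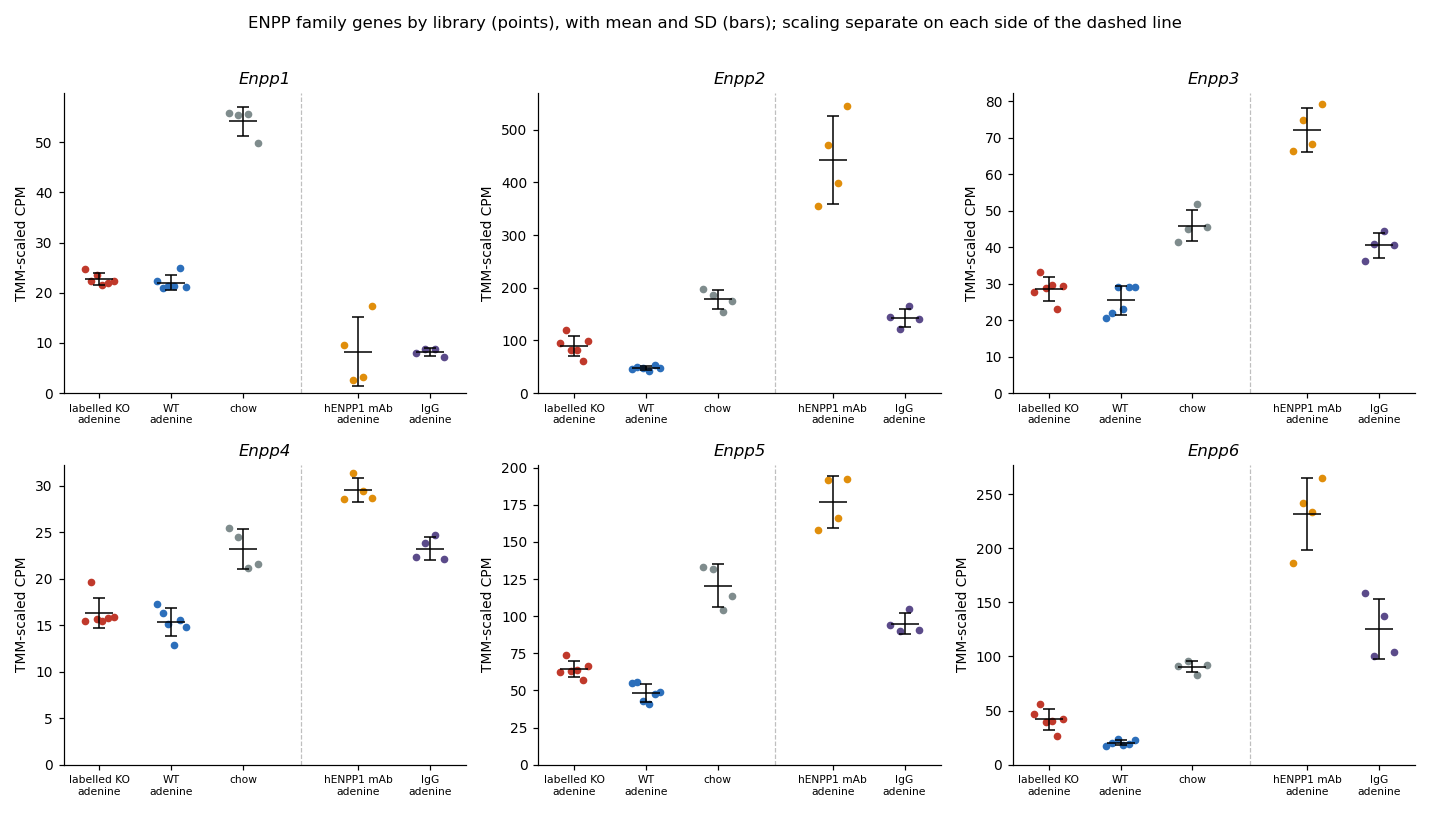
TMM-scaled CPM of each gene in each library (points), with mean and SD (bars); CPM are scaled separately on each side of the dashed line. On this scale chow kidneys lie above both adenine groups for all 6 genes, and antibody libraries lie above IgG libraries for all but Enpp1, whose antibody libraries range between 2.62 and 17.4 CPM.

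Over the family, labelled-knockout kidneys had 3 of 6 members higher than wild-type kidneys on adenine (Enpp2, Enpp5 and Enpp6) and 0 lower. Of all 16959 genes, 46.4% were called in this comparison, 25.1% as higher and 21.3% as lower. All 6 members were lower in labelled-knockout kidneys than in chow kidneys, where 80.1% of genes were called, 40.2% as higher and 39.9% as lower. All 6 were lower in wild-type kidneys on adenine than in chow kidneys, where 84.9% were called, 44% as higher and 40.9% as lower. In both comparisons with chow the family median was negative, at -0.95 and -1.31, while the median of all genes was 0.03 and 0.07. In antibody kidneys 5 of 6 members were higher than in IgG kidneys, where 55.3% of 16404 genes were called, 27.2% as higher and 28% as lower. The family median was 0.29 in labelled-knockout over wild-type kidneys and 0.86 in antibody over IgG kidneys, against -0.02 and -0.04 for all genes.

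Calls over chow depend on what is held constant. Without TMM, the median of all genes moved to 0.60 in labelled-knockout and 0.72 in wild-type kidneys, both over chow, and on log2 TPM to 0.76 and 0.90. The share of called genes that were higher than in chow then moved to 78.5% and 75.1% without TMM, and to 87.6% and 82.9% on log2 TPM, against 50.2% and 51.8% with TMM. On log2 TPM, 1 of 6 members, Enpp1, was still called lower in labelled-knockout kidneys. Subtracting the median of all genes cancels any scaling of whole libraries, so the count scalings give nearly the same value by construction, and log2 TPM is the other measure. Relative to that median, Enpp4 was at -0.54 by counts and -0.51 by log2 TPM in labelled-knockout kidneys over chow, and at -0.67 and -0.65 in wild-type kidneys over chow. In labelled-knockout over wild-type kidneys, Enpp2 was at 0.94 by counts and 0.93 by log2 TPM, Enpp6 at 1.06 and 0.76, and Enpp5 at 0.43 and 0.50. For the antibody over IgG, Enpp2 was at 1.67 by counts and 1.68 by log2 TPM, and Enpp4 at 0.38 by both.

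**Figure D3:**
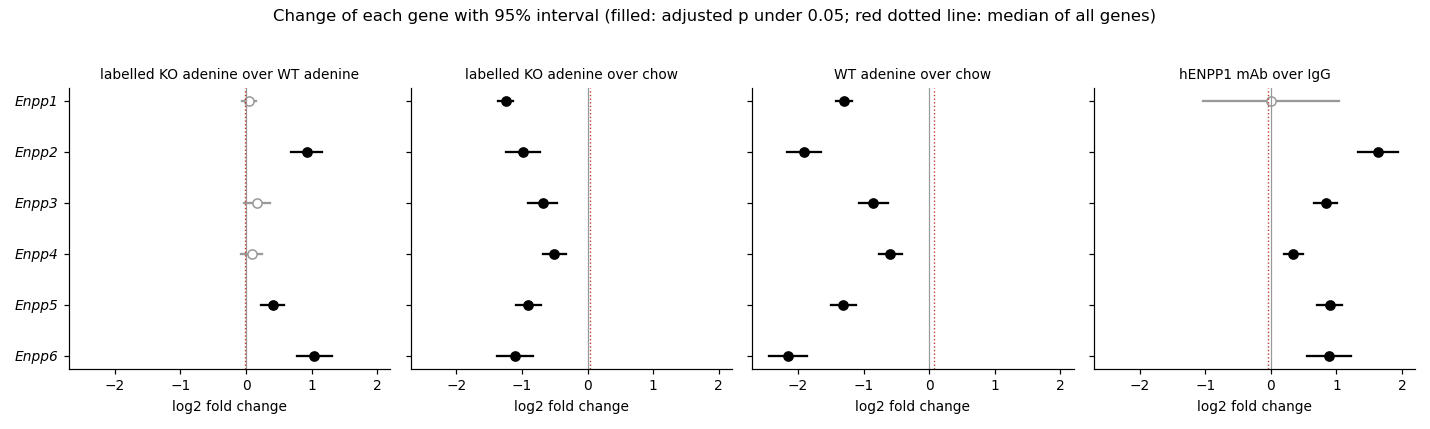
Log2 fold change of each gene (points, filled where adjusted p was under 0.05) with its 95% interval in the 4 comparisons; the red dotted line is the median of all genes. All members lie left of that line over chow, and Enpp1 has the widest interval, -1.04 to 1.03, for antibody over IgG.

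With TMM scaling, most markers of the proximal tubule, thick ascending limb and distal tubule changed in the direction of the family members that were called. Of 10 proximal tubule markers, 9 were higher in labelled-knockout than in wild-type kidneys on adenine, with a median log2 fold change of 1.33, and 10 of 10 were higher in antibody than in IgG kidneys, with a median of 1.83. With TMM scaling, 9 of 10 proximal tubule markers were lower over chow in labelled-knockout kidneys and 10 of 10 in wild-type kidneys. By summed TPM, labelled-knockout kidneys (3589 to 6426) overlapped chow kidneys (4767 to 4877), and wild-type kidneys (1485 to 2632) lay below chow. Of 8 markers of the thick ascending limb and distal tubule, 7 were higher in labelled-knockout than in wild-type kidneys and 8 in antibody than in IgG kidneys. All 5 markers of injured tubule were higher in each adenine group than in chow kidneys, and 4 were lower in antibody than in IgG kidneys. Markers of podocytes (5 of 5), collecting duct (6 of 6), endothelium (6 of 6) and red blood cells (5 of 5) were also higher in labelled-knockout than in wild-type kidneys, with medians of 0.75, 0.58, 0.46 and 3.93. In antibody over IgG kidneys 5 of 5 macrophage and 6 of 7 fibroblast markers were lower. Between labelled-knockout and wild-type kidneys, 4 of 7 fibroblast markers were higher. Under the antibody, 2 of 6 collecting duct and 2 of 5 podocyte markers were higher and 1 of each lower. There, 2 of 6 endothelial markers were lower and 0 higher, and 0 of 5 red blood cell markers were called. The part of these cell types in the family's changes was not tested. In whole-kidney RNA, fewer cells of a type and less RNA per cell cannot be told apart.

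Transcripts added differences that the gene totals do not show. Of the 34 family transcripts, 18 passed the low-count filter in the knockout experiment and 21 in the antibody experiment. In labelled-knockout over wild-type kidneys on adenine 5 were higher and 0 lower, where 16.1% of all transcripts were called, 10.1% as higher and 6.05% as lower. The count was 3 without labelled-knockout library 2 or 6, or without wild-type library 3 or 4. Over chow, 0 were higher and 10 lower in labelled-knockout kidneys, where 57.1% were called, 31.2% as higher and 25.9% as lower. In wild-type kidneys over chow 1 was higher and 11 lower, where 62.1% were called, 35.1% as higher and 27% as lower. With the antibody, relative to IgG, 11 were higher and 0 lower, where 28.8% were called, 14.3% as higher and 14.5% as lower. Transcript counts over chow carry a scaling shift, since the median of all transcripts was 0.21 and 0.29 there, and 0.49 and 0.60 with the library sizes of the gene fit. With those sizes, 2 were higher and 7 lower in labelled-knockout kidneys, and 2 higher and 10 lower in wild-type kidneys, both over chow. The 57.1 and 62.1% of all transcripts belong to the transcript scaling and cannot be set beside these counts. Shares of a gene's reads are free of it.

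Enpp1-202, the coding transcript, carried most Enpp1 reads, and the intron-retaining Enpp1-204 most of the rest. Enpp1-204 took 10.5, 11.7 and 12.2% of Enpp1 reads in labelled-knockout kidneys (lowest, median and highest), 13.8, 14.7 and 19.3% in wild-type kidneys on adenine, and 2.82, 3.36, 3.64 and 3.38% in chow kidneys. The 3 groups did not overlap. Enpp1-202 took 87.7 ± 1.34%, 83.5 ± 2.47% and 95.2 ± 1.05% of the reads (SD, n = 6, 6 and 4). Enpp1-201, Enpp1-203 and Enpp1-205 each averaged under 1% in the knockout experiment.

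Usage of a transcript within its gene was tested with edgeR across all transcripts. Usage changes from edgeR are given as natural logs and those from limma as log2. Enpp1-204 usage was higher than in chow kidneys by 1.24 on the natural-log scale in labelled-knockout kidneys (adjusted p = 0.0235, edgeR) and by 1.54 in wild-type kidneys (adjusted p = 0.00285, edgeR). In these comparisons 16% and 21.1% of transcripts were called. The labelled-knockout call was lost when any single chow library was left out (adjusted p = 0.0647 to 0.102, edgeR). In CPM the 2 transcripts differed in direction. Enpp1-202 had 19.9 ± 1.10, 18.3 ± 0.907 and 51.6 ± 2.73 CPM in labelled-knockout, wild-type and chow kidneys, and Enpp1-204 had 2.61 ± 0.201, 3.42 ± 0.684 and 1.79 ± 0.202 CPM (SD, n = 6, 6 and 4). In reads, on the log2 scale, Enpp1-204 was higher than in chow by 0.62 (adjusted p = 0.00133, edgeR) in wild-type kidneys and by 0.26 (adjusted p = 0.136, edgeR) in labelled-knockout kidneys. With gene-level scaling the labelled-knockout value was 0.54 (adjusted p = 0.00559, edgeR).

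Between labelled-knockout and wild-type kidneys on adenine, the Enpp1-204 share differed by -4.01 percentage points (exact two-sided permutation test, p = 0.00216, the smallest p that 6 against 6 libraries allow). No transcript of the family passed the edgeR usage test there, where 1.13% of all transcripts were called. Enpp1-204 itself had an adjusted p of 1.00 (edgeR). The call depends on the method, since limma's usage test called this pair of transcripts (adjusted p = 0.00411). Only Enpp1-202 and Enpp1-204 were tested for Enpp1, so their limma log2 values mirror each other (0.50 and -0.50) and make 1 result. The share of all transcripts that limma called is not given here. The permutation p-values are unadjusted and belong to 56 tests of 14 transcripts.

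In antibody kidneys Enpp1-202 varied widely and Enpp1-204 did not follow it. Enpp1-202 had 258, 47.9, 55.7 and 515 estimated reads in antibody kidneys, against 301, 417, 389 and 283 reads in IgG kidneys. Enpp1-204 had 76.3, 39.7, 75.9 and 72.1 reads in antibody kidneys, against 68.1, 87.7, 91.5 and 95.7 reads in IgG kidneys. The coding transcript spanned 47.9 to 515 reads over the antibody libraries and the intron-retaining one 39.7 to 76.3. The Enpp1-202 share was 67.1, 42.3, 40.1 and 76.5% in antibody kidneys and 79.9 ± 3.52% in IgG kidneys (exact two-sided permutation test, p = 0.0571 with n = 4 each, where the smallest possible p is 0.0286). Enpp1-201, annotated as a target of nonsense-mediated decay, had 50.5 and 85.9 reads in antibody libraries 1 and 4 and 0 in every IgG library. Enpp1-205 had 25.7 reads in antibody library 2 and 0 in the other antibody libraries and in the IgG libraries. At these read numbers the division of reads among overlapping transcripts is itself an estimate.

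**Figure D4:**
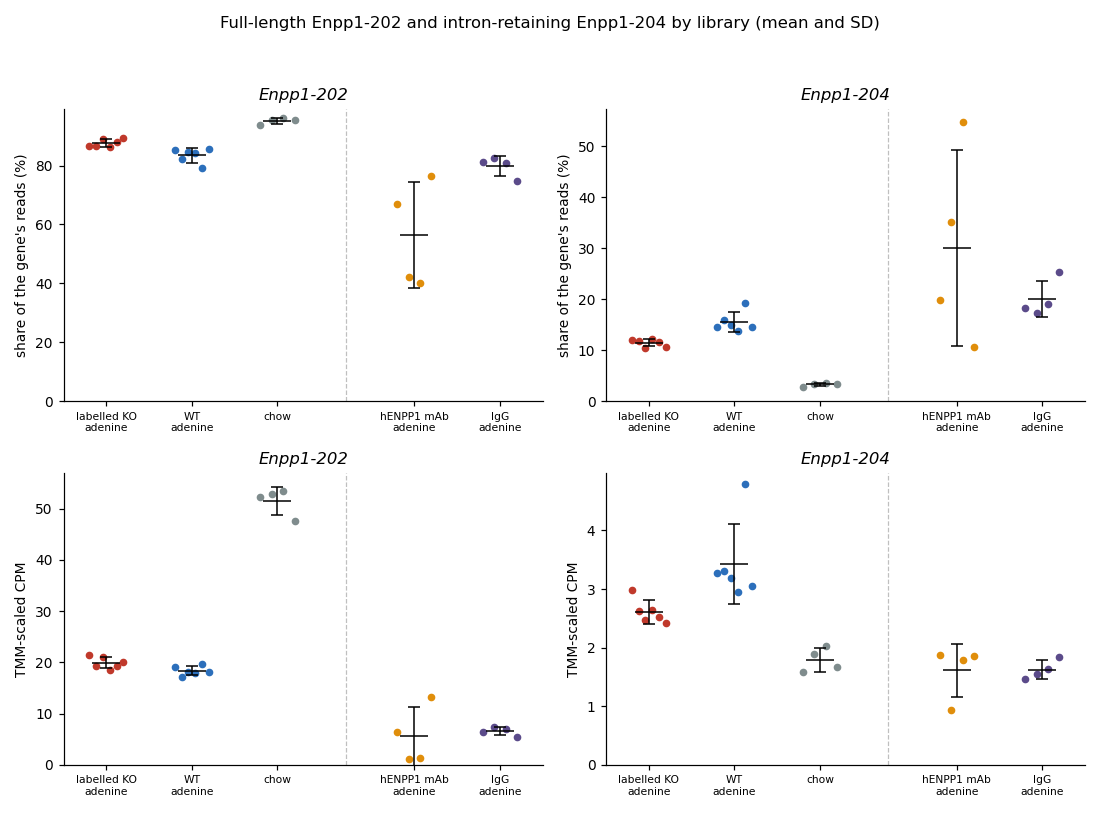
Share of Enpp1 reads (upper panels, %) and TMM-scaled CPM (lower panels) of Enpp1-202 and Enpp1-204 in each library, with mean and SD. The Enpp1-204 share lies near 3% in chow kidneys and above 10% in every adenine library, and Enpp1-202 is at 1.11 and 1.31 CPM in 2 antibody libraries.

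Enpp5 reads were divided differently among its transcripts over chow and under the antibody. Enpp5-203 and Enpp5-201 encode the same protein and differ in the end of exon 1, which runs 84 bases further in Enpp5-201, and in their outer ends. The rest of their sequence is shared, so the division of reads between these 2 transcripts is an estimate that rests on those stretches. Enpp5-202 is annotated as a target of nonsense-mediated decay. Enpp5-203 took 38.3 ± 5.08% of the reads in labelled-knockout kidneys and 38.0 ± 9.83% in wild-type kidneys on adenine, against 71.1 ± 8.28% in chow kidneys (SD, n = 6, 6 and 4). Its usage change over chow, on the natural-log scale, was -0.62 in labelled-knockout kidneys (adjusted p = 0.000144, edgeR) and -0.66 in wild-type kidneys (adjusted p = 4.94e-05, edgeR). Enpp5-202 took 23.99 ± 2.46% in labelled-knockout kidneys and 32.7 ± 3.38% in wild-type kidneys, against 8.72 ± 1.41% in chow kidneys. On the natural-log scale its usage was higher than in chow by 1.02 in labelled-knockout kidneys (adjusted p = 0.000151, edgeR) and 1.34 in wild-type kidneys (adjusted p = 1.47e-06, edgeR). Enpp5-201 usage was higher than in chow by 0.66 on that scale in labelled-knockout kidneys (adjusted p = 0.00254, edgeR), a call lost without chow library 1 (adjusted p = 0.0624, edgeR). In wild-type kidneys it was higher by 0.42 without passing (adjusted p = 0.0608, edgeR).

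Enpp5-202 also separated the adenine groups of the knockout experiment. Its share was 20.7, 24.5 and 26.6% in labelled-knockout kidneys (lowest, median and highest), against 27.0, 32.9 and 36.7% in wild-type kidneys. The groups did not overlap (exact two-sided permutation test, p = 0.00216), while the edgeR usage test gave an adjusted p of 1.00. Enpp5-201 took 59.8, 65.9, 69.2 and 62.9% of Enpp5 reads in antibody kidneys, against 26.8, 38.0, 41.7 and 31.1% in IgG kidneys. Its usage was higher by 0.62 on the natural-log scale (adjusted p = 0.000298, edgeR). Enpp5-203 took 27.2 ± 3.65% in antibody kidneys and 51.1 ± 5.19% in IgG kidneys (SD, n = 4 each). Its usage change was -0.63 on the natural-log scale (adjusted p = 0.000485, edgeR). Of all transcripts, 5.73% were called for usage in this comparison.

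Enpp2-204, the transcript with the 52-codon cassette shown above, was chosen for description after its values were seen, as was Enpp3-208. The cassette matches in length the insert that distinguishes autotaxin alpha from the shorter beta form. Enpp2-204 took 3.70, 4.12, 4.26 and 4.45% of Enpp2 reads in antibody kidneys, against 0.823, 1.80, 1.19 and 1.54% in IgG kidneys. Its usage was higher by 1.15 on the natural-log scale (adjusted p = 0.000554, edgeR). The log2 fold change of its reads was 3.29 (SE 0.272, adjusted p = 0.000656, edgeR), beside a log2 fold change of 1.63 for the gene. In the knockout experiment the share was 1.38 ± 0.553% in labelled-knockout kidneys, 0.976 ± 0.368% in wild-type kidneys and 1.29 ± 0.101% in chow kidneys, with overlapping ranges. Enpp2-201 kept 94.5 ± 0.495% of the reads in antibody kidneys and 97.9 ± 0.409% in IgG kidneys. Enpp3-208, a short annotated transcript of 465 bases, took 1.03 ± 0.377% of Enpp3 reads in antibody kidneys and 0.153 ± 0.172% in IgG kidneys. The usage difference was 1.96 on the natural-log scale (adjusted p = 0.00626, edgeR). That rests on 13.2 to 43.0 reads per antibody library.

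**Figure D5:**
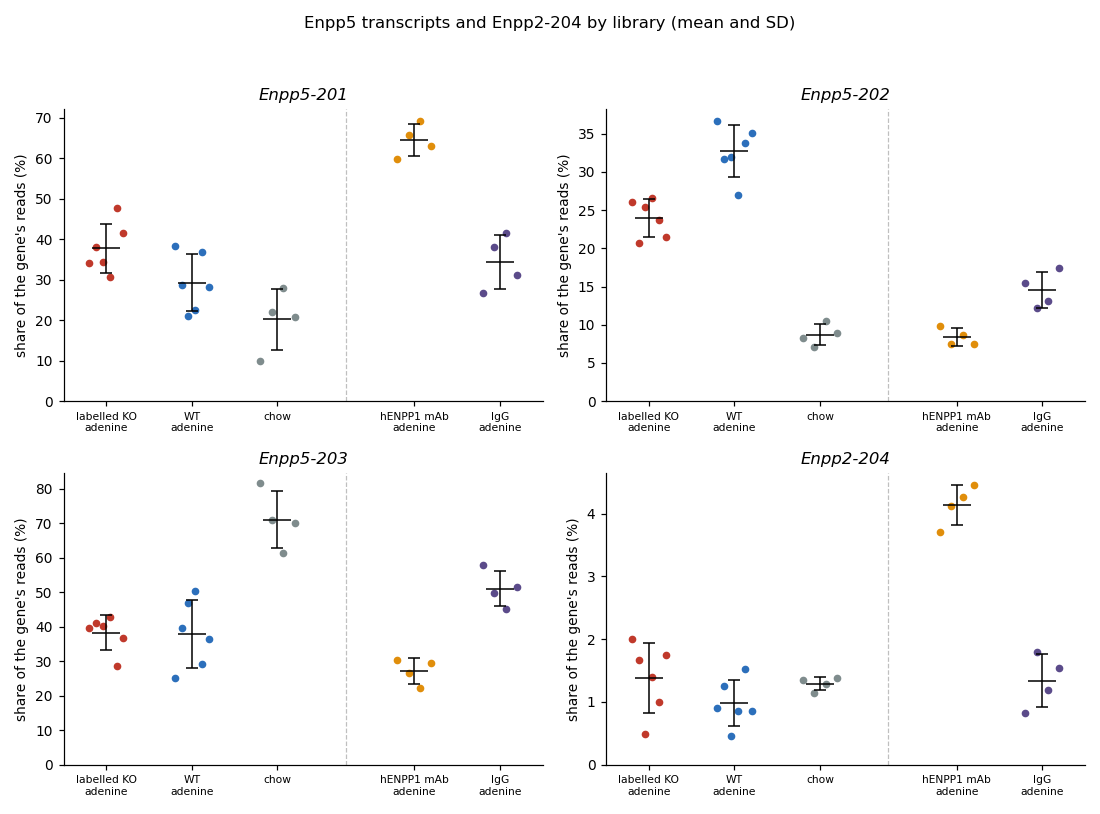
Share of the gene's reads (%) of Enpp5-201, Enpp5-202, Enpp5-203 and Enpp2-204 in each library, with mean and SD. Enpp5-203 leads in chow kidneys at 71.1% and Enpp5-201 in antibody kidneys at 64.5%, and the Enpp2-204 share is above 3% in antibody kidneys only.

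No Enpp6 or other Enpp3 transcript that is named here passed the edgeR usage test, while some shares differed in single permutation tests. Enpp6-201 held 94.6 ± 1.27% of Enpp6 reads in labelled-knockout, 92.6 ± 2.56% in wild-type and 95.8 ± 0.753% in chow kidneys, and 99.0 ± 0.258% in antibody and 98.9 ± 0.234% in IgG kidneys. Its share in wild-type over chow kidneys differed with overlapping ranges (exact two-sided permutation test, p = 0.0190). Enpp3-201 held 66.3 ± 3.42% of Enpp3 reads in labelled-knockout kidneys, 58.8 ± 3.64% in wild-type kidneys on adenine and 67.8 ± 1.27% in chow kidneys. Its share was higher by 7.47 percentage points in labelled-knockout than in wild-type kidneys with overlapping ranges (exact two-sided permutation test, p = 0.00433), and differed by -9.01 points in wild-type over chow kidneys with ranges apart (exact two-sided permutation test, p = 0.00952, the smallest possible). Enpp3-207, which has no coding region, held 12.1 ± 3.34% in wild-type kidneys on adenine and 6.17 ± 2.09% in chow kidneys with overlapping ranges (exact two-sided permutation test, p = 0.0190). It held 4.36 ± 0.424% in antibody kidneys and 6.05 ± 0.828% in IgG kidneys with ranges apart (exact two-sided permutation test, p = 0.0286, the smallest possible). The Enpp3-204 share of reads had p-values of 0.0823 to 0.543 in the 4 comparisons (exact two-sided permutation tests). Its share of Enpp3 TPM was 31.6% in antibody and 40.5% in IgG kidneys with ranges apart (exact two-sided permutation test, p = 0.0286, the smallest possible). Enpp4-201 and Enpp4-202 share nearly all their sequence, and Enpp4-201 took between 0 and 100% of the gene's reads in single wild-type libraries on adenine, so no share is read for Enpp4.

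Genes with the profile most like each member were ranked over the 16 libraries of the knockout experiment by the root mean square (RMS) difference of centred log2 CPM, among 12117 genes. The list describes these libraries. Nearest to Enpp1 were Mrpl22, Ift20 and Ppp1r11 (RMS 0.0955 to 0.101, against a median of 0.541 over all genes), and over the 8 antibody-experiment libraries the same pairs differed by 0.776 to 0.837. Nearest to Enpp2 were Xpnpep1, Aldh4a1 and Lipa (0.0844 to 0.0943). Nearest to Enpp3 were Nr1h4, Dab2 and Dock9 (0.0970 to 0.106), and nearest to Enpp4 were Cln8, Pam and Klhdc10 (0.0591 to 0.0762). Nearest to Enpp5 were Bri3, Vapb and Yipf1 (0.0660 to 0.0715), and nearest to Enpp6 were Lipa, Igfbp4 and Aldh7a1 (0.0866 to 0.113). Lipa, the lysosomal acid lipase, is thus near both Enpp2 and Enpp6, and the RMS in the antibody experiment was 0.431 to Enpp2 and 0.162 to Enpp6.

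Genes that make, remove or sense the products of the family were counted from lists of pathway genes. Of 16 genes of ATP, pyrophosphate and adenosine handling, 7 were higher and 5 lower in labelled-knockout than in wild-type kidneys on adenine (median log2 fold change 0.11, against -0.02 for all genes). Adenosine kinase, Adk, was higher by 1.17 (SE 0.145, adjusted p = 3.65e-06, edgeR) and Abcc6, a transporter needed for ATP release from liver, by 1.12 (SE 0.103, adjusted p = 1.71e-07, edgeR). Over chow, 6 were higher and 7 lower in labelled-knockout kidneys and 5 higher and 9 lower in wild-type kidneys. Adk had log2 fold changes over chow of -1.81 in labelled-knockout and -2.99 in wild-type kidneys. In antibody over IgG kidneys 4 of 15 tested were higher and 3 lower, with Entpd5, a nucleoside diphosphatase, at 1.21 and Adk at 1.19.

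Of 10 tested genes for making, sensing or removing lysophosphatidic acid other than Enpp2, 4 were higher and 1 lower in labelled-knockout than in wild-type kidneys. The receptor gene Lpar3 was higher by 1.27 (SE 0.154, adjusted p = 3.07e-06, edgeR) and the phosphatase gene Plpp1 by 0.68 (SE 0.107, adjusted p = 4.98e-05, edgeR). Over chow 2 were higher and 7 lower in each adenine group, with Plpp1 at -1.64 in labelled-knockout and -2.33 in wild-type kidneys. With the antibody, relative to IgG, 1 was higher, Lpar3 at 1.20, and 3 were lower, among them Lpar1 at -0.85.

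Of 8 tested cGAMP genes, 1 was higher and 2 lower in labelled-knockout than in wild-type kidneys. Slc19a1, a folate carrier that also imports cyclic dinucleotides in human cells, was higher by 0.46 (adjusted p = 7.92e-05, edgeR), and Cgas, the enzyme that makes cGAMP, was at -0.34 (adjusted p = 0.0211, edgeR). Over chow 4 were higher and 3 lower in each adenine group. Tmem173, the cGAMP sensor STING, was higher than in chow by 2.08 in labelled-knockout and 2.198 in wild-type kidneys, and Cgas by 1.04 and 1.38. In antibody over IgG kidneys 2 were higher and 3 lower, with Cgas at -1.36 and Slc19a1 at 0.73. Of 12 choline and glycerophosphocholine genes, 3 were higher and 4 lower in labelled-knockout than in wild-type kidneys, led by Gde1 at 0.55 and Chka at -0.48. Gde1, a glycerophosphodiester phosphodiesterase, had log2 fold changes over chow of -1.26 in labelled-knockout and -1.82 in wild-type kidneys. Over chow, 5 were higher and 6 lower in labelled-knockout and 5 higher and 5 lower in wild-type kidneys. With the antibody, relative to IgG, 3 were higher and 3 lower, with choline dehydrogenase, Chdh, at 0.76 and the phosphatidylcholine synthesis gene Pcyt1a at 0.69. The shares called in these lists can be read against the 46.4, 80.1, 84.9 and 55.3% of all genes called.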

How the data were processed

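Bulk RNA was sequenced from TruSeq stranded libraries, per the labels' protocols. The submitters' processing notes name Salmon and GRCm39; the sources used here give no options or annotation release. Of the values the authors deposited per transcript, 2 are used for the levels and tests, named in the file headers: an estimated count of reads (also called an expected count, from Salmon) and TPM, which is scaled to length and library. Lengths were deposited too and served the length offset named below. Of 116755 transcript IDs in the deposited files, 115636 (99.0%) matched GENCODE M21 and were summed to 35413 genes; unmatched IDs held 0.45 to 0.57% of reads. Estimated counts were rounded and fitted with edgeR 4.0.16 (R 4.3.3; filterByExpr, TMM, quasi-likelihood F test), all groups of an experiment together, with Benjamini-Hochberg adjustment. Transcript usage was tested with diffSpliceDGE, whose usage changes are natural logs. Single shares were compared by exact permutation tests. Alternatives used limma 3.58.1, DESeq2 1.42.0, other scalings, no filter, 2 groups only, a length offset, a replicate block and each library left out. TPM served to compare levels between genes, and log2 fold changes are of TMM-scaled counts unless a pseudocount of 0.1 on TPM is stated. The fits were also run on simulated data in which a small part of the features changed, which does not test the scaling. The members and lists were chosen with earlier results of these data known. Named were all members, every Enpp1 transcript, other transcripts with at least 10% of reads in a group, the 3 most alike genes per member with at least 5 CPM, and the 2 called genes with the largest change per list. Libraries of a group differed by more than sampling noise (chi-square per gene of at least 5.19), so none was counted as a duplicate.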

Additional observations from a re-analysis of the deposited data

Results flagged for a closer look

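In 40 groups of 4 to 6 libraries examined, 4 had a library far from the rest by Dixon's ratio, and chance gives about 1 in 20 groups. Wild-type library 5 on adenine had the highest Enpp1 level, 24.9 CPM, where the other 5 lay between 20.9 and 22.3 CPM, and the same library had the highest Enpp1-204 share, 19.3%, against 13.8 to 15.8% in the others. Chow library 4 had the lowest Enpp1 level, 49.9 CPM, against 55.4 to 55.8 CPM in the other chow libraries. Labelled-knockout library 2 had the highest Enpp4 level, 19.7 CPM, against 15.4 to 15.9 CPM in the other 5.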

How the results depend on the processing

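Of the alternatives, those named here as library totals, log2 TPM and gene-level TMM were chosen after seeing the data. The number of members called was 3 in labelled-knockout over wild-type kidneys under every alternative run, 4 to 6 in wild-type kidneys over chow, 4 to 5 in antibody over IgG kidneys, and 6 in labelled-knockout kidneys over chow except for 4 with library totals and 1 with log2 TPM. Family transcripts called in labelled-knockout over wild-type kidneys numbered 5, and 3 to 6 when single libraries were left out. Enpp1 transcripts called for usage in labelled-knockout over chow kidneys numbered 1, and 0 to 1 when single libraries were left out. Limma's usage test called 2 Enpp1 transcripts in each knockout-experiment comparison.

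Replicate numbers did not pair the libraries (correlations of same-numbered deviations -0.144 to 0.068, and not every library correlated best with its own number). With the replicate block, 3 in place of 5 transcripts were called in labelled-knockout over wild-type kidneys, and the counts of called genes were as without it.

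Several log2 and usage changes turned sign, among them Enpp3 and Enpp4 over chow, which passed the test with TMM scaling. On log2 TPM, Enpp3 was at 0.14 and Enpp4 at 0.25 in labelled-knockout over chow kidneys, Enpp3 at 0.20 and Enpp4 at 0.25 in wild-type over chow kidneys, and Enpp1 at -0.090, Enpp3 at -0.059 and Enpp4 at -0.0038 in labelled-knockout over wild-type kidneys. With library totals, Enpp4 was at 0.059 in labelled-knockout and 0.058 in wild-type kidneys over chow and Enpp1 at -0.034 between the adenine groups, where upper-quartile scaling gave -0.017. In antibody over IgG kidneys Enpp1 was at 0.014 with RLE scaling, 0.22 with a length offset, 0.020 with DESeq2 and -0.67 to 0.30 when single libraries were left out. There, leaving out libraries gave -1.19 to 0.085 for Enpp1-202 and -0.10 to 0.17 for Enpp1-204 (0.020 with RLE scaling). It gave edgeR usage changes, as natural logs, of -0.20 to 0.020 for Enpp1-202 and -0.078 to 0.55 for Enpp1-204. The edgeR usage change of Enpp5-203 in labelled-knockout over wild-type kidneys was -0.042 to 0.091 (natural log) when single libraries were left out. Limma gave -0.069 (log2) for Enpp2-204 usage in labelled-knockout over chow kidneys. The cause of these changes was not tested.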
